A study of Mus musculus with 6 samples.

Results

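Semaphorins and plexins are described here in type 2 conventional dendritic cells (cDC2s) of mouse spleen, either deficient in the transcription factor IRF4 or wild type (WT). The genes are 5 semaphorins (Sema4a, Sema4b, Sema4c, Sema4d and Sema7a) and 4 plexins (Plxna1, Plxnb2, Plxnc1 and Plxnd1), found by symbol among the 14535 gene rows of the deposited raw count table. IRF4-deficient cells came from CD11c-Cre Irf4fl/fl mice, whose Cre is driven by the CD11c (Itgax) promoter, active in dendritic cells and in other CD11c-expressing cells. The WT group has no stated Cre or floxed allele, so the transgene, the floxed allele and the deletion differ together between the groups. Each group has 3 RNA-seq libraries from C57BL/6 mice, and neither age nor the sort gate is given in the sources used here. Whether the replicates came from separate mice is not stated either, so the p-values cover only library-to-library spread, possibly of a technical kind.

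Semaphorins are secreted or membrane-bound proteins with a shared sema domain, and plexins are their main receptors. A plexin that has bound its ligand acts through a cytoplasmic domain that switches off Rap GTPases, which changes adhesion and the actin cytoskeleton. First described in axon guidance, these proteins are also known in the immune system for contacts between dendritic cells and T cells and for the movement of dendritic cells.

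In IRF4-deficient cDC2s, Sema7a fell 2.21-fold, while Plxna1 rose 2.51-fold, Plxnb2 1.58-fold and Sema4d 1.31-fold. The other 5 genes (Sema4a, Sema4b, Sema4c, Plxnc1 and Plxnd1) had fold changes of 1.14 to 1.65 and did not pass the test. Of the 9 genes, 3 were thus called higher and 1 lower, by edgeR's quasi-likelihood test at a Benjamini-Hochberg adjusted p under 0.05 over all 11934 tested genes. In the same fit 20.4% of all tested genes were called, 9.87% higher and 10.5% lower. The median log2 fold change (IRF4-deficient over WT) was 0.38 over the 9 genes, against 0.0025 over all tested genes. All 9 passed the filter on low counts.

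Library totals lay between 7949462 and 10609420 counts in the IRF4-deficient group and between 7421605 and 11459920 counts in WT. Irf4 averaged 80.01 ± 13.2 CPM in IRF4-deficient libraries, against 311 ± 29.6 CPM in WT libraries (mean ± SD, n = 3 each). CPM is a gene's count relative to the TMM-scaled library size. No IRF4-deficient library reached the level of a WT library. Irf4 was thus 3.88-fold lower but still present, and the source of the remaining counts was not tested. The summed level of 9 conventional dendritic cell and cDC2 markers was 10114 to 10639 CPM in IRF4-deficient and 9824 to 10500 CPM in WT libraries, and no marker was at 0. H2-Ab1 alone held much of that sum, and 6 of the 9 were called, Itgam (3.03-fold) and Itgax (log2 fold change 0.29) higher and Cd4 (4.23-fold), Zbtb46 (1.92-fold), Flt3 (1.65-fold) and H2-Ab1 (1.19-fold) lower in IRF4-deficient libraries. Markers of some other cells moved with genotype, while other lists overlapped in sum. Of 5 plasmacytoid dendritic cell markers tested, Cox6a2 (8.22-fold) and Siglech (2.43-fold), both at low levels, were called higher and Ccr9 (1.66-fold) lower. The list summed to 200 to 230 CPM in IRF4-deficient and 210 to 249 CPM in WT libraries. Tcf4, which was not called, held most of that sum. The sums of NK cell, erythroid and platelet, and stromal markers overlapped too. Neutrophil markers were near the floor, at 0.494 to 0.920 CPM in IRF4-deficient and 1.64 to 7.73 CPM in WT libraries. Of 12 red pulp macrophage markers 7 were called higher. The sum of all 12 was 1783 CPM in IRF4-deficient replicate 1, 2508 CPM in replicate 2 and 3294 CPM in replicate 3, with WT libraries at 1010 to 1349 CPM. Vcam1 was the largest part of that sum. Spic and Cd163 overlapped between the groups and were not called (edgeR adjusted p of 0.282 and 0.44). Hmox1, C1qc and Axl did not overlap but were not called either (edgeR adjusted p of 0.064, 0.0898 and 0.0521). Of 7 monocyte markers 5 were called higher, with sums of 1996 to 2361 CPM in IRF4-deficient against 924 to 1190.2 CPM in WT libraries. Lyz2, Csf1r and Itgal held most of that sum. Ly6c2 and Fcgr1, both at low levels, overlapped between the groups and were not called (edgeR adjusted p of 0.256 and 0.118). Of 6 markers of type 1 dendritic cells 4 were called higher, with sums of 174 to 249 CPM in IRF4-deficient and 122 to 138 CPM in WT libraries. The part of these cells in the semaphorin and plexin results was not tested. The fit with a red pulp covariate given below cannot separate them from genotype, since its index did not overlap between the groups. On the second principal component, with 14% of the variance, IRF4-deficient replicate 3 lay at one end and the other IRF4-deficient libraries at the opposite end, with the WT libraries between them. In such bulk libraries more cells of a type and more RNA per cell cannot be told apart.

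Promoters were searched for IRF motifs because IRF proteins bind DNA at GAAA repeats. Sequence is given for Plxnc1, chosen because it held the only match, and for Sema7a, the only gene of the set that fell. The windows reach from 250 bases before to 50 bases after an annotated start, and a table of RefSeq promoters on GRCm38.p6 held 16 of them for 8 of the 9 genes (Plxna1 is named only). Both strands were searched for 3 motifs. These were the interferon-stimulated response element (ISRE, GAAA then NN then GAAA), the ETS and IRF composite element (EICE, GGAA then NN then GAAA), and the AP-1 and IRF composite element (AICE, as TGANTCA then NNNN then GAAA, or as GAAA directly before TGANTCA). An ISRE and an EICE may overlap, since they share their GAAA end. The search gave 1 match, an ISRE in the Plxnc1 window at 118 to 109 bases before the start (chr10:94944954-94944963, on the strand of the gene). ISRE letters occur in 3.44% of all 32851 windows in the table, EICE letters in 2.72% and AICE letters in 0.244%. The first sequence below is the Plxnc1 promoter up to the start (chr10:94944846-94945095, minus strand) with the ISRE match in capitals. The second is that of Sema7a (chr9:57939862-57940111, plus strand), where no match was found. Both are from RefSeq on GRCm38.p6 and run 5′ to 3′.
Plxnc1: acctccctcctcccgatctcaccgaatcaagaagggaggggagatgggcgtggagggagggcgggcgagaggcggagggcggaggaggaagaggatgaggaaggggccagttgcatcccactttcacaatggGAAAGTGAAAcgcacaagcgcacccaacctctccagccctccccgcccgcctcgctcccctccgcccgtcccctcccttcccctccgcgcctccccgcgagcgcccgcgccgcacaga
Sema7a: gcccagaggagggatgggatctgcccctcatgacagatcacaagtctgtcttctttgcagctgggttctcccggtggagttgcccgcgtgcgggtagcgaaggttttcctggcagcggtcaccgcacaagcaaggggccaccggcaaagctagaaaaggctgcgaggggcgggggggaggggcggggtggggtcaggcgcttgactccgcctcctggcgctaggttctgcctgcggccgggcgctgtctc
The match is a run of letters in a window, and no binding was measured here.

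Among the ligands, Sema4d (CD100), a transmembrane semaphorin that binds B-type plexins and CD72, was the most abundant. Libraries 1, 2 and 3 of the IRF4-deficient group had 922, 907 and 838 CPM of Sema4d, against 672, 715 and 657 CPM in WT libraries 1, 2 and 3. All 3 IRF4-deficient libraries lay above all 3 WT libraries, as for 17.5% of all tested genes. On the log2 scale the fold change was 0.38 (SE 0.08, edgeR adjusted p = 0.00101), and its 95% interval spans 1.17 to 1.46-fold. Sema4d is also abundant in lymphocytes. The 5 T cell markers measured summed to 29.7 to 34.5 CPM in IRF4-deficient and 28.6 to 40.1 CPM in WT libraries, and the 6 B cell markers to 103 to 141 CPM in IRF4-deficient and 96.5 to 162 CPM in WT libraries. Of these B cell markers Cd79b was called higher (1.74-fold) and Ms4a1 (2.08-fold) and Cr2 (2.48-fold) lower, and the part of lymphocytes in the Sema4d result was not tested. The gene (ENSMUSG00000021451.16) lies on GRCm38 chromosome 13 at 51685529 to 51793747 on the minus strand.

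Sema7a encodes a semaphorin held on the membrane by a GPI anchor, known to signal through plexin C1 and through integrins with the beta-1 chain. It was the only gene of the 9 that fell. The IRF4-deficient replicates 1, 2 and 3 had 24.02, 18.8 and 19.4 CPM, against 44.1, 51.3 and 42.5 CPM in WT libraries 1, 2 and 3. The groups were far from overlapping, with the highest IRF4-deficient library well under the lowest WT library, and 18.1% of all tested genes had their IRF4-deficient libraries below all WT libraries. This is a log2 fold change of -1.15 (SE 0.16, edgeR adjusted p = 2.87e-05). Sema7a (ENSMUSG00000038264.8) lies on chromosome 9 at 57940112 to 57962865 on the plus strand, and no other annotated gene overlaps it.

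Sema4a, a ligand made by dendritic cells that is known to costimulate T cells, did not pass the test. IRF4-deficient replicates 1, 2 and 3 held 30.5, 43.8 and 42.8 CPM, against 32.2, 26.2 and 29.6 CPM in WT. IRF4-deficient replicate 1 lay among the WT libraries, and the other IRF4-deficient libraries lay above them. Sema4a had a log2 fold change of 0.41 (SE 0.17, edgeR adjusted p = 0.0939). Without that replicate, the IRF4-deficient library nearest to WT, the value was 0.57 with an adjusted p of 0.0218. Leaving out any other library gave no call (edgeR adjusted p up to 0.309). Sema4b, a transmembrane relative, had 35.5, 22.6 and 36.1 CPM in IRF4-deficient libraries and 27.8, 22.6 and 22.7 CPM in WT. Here IRF4-deficient replicate 2 was the low one. Sema4b had a log2 fold change of 0.37 (SE 0.19, edgeR adjusted p = 0.189). Without that low replicate the value was 0.56 with an adjusted p of 0.0409. No call came from leaving out any other library (edgeR adjusted p up to 0.434). Sema4c, a ligand of plexin B2, was near the limit of detection, with 26, 14 and 33 counts in IRF4-deficient and 14, 12 and 13 counts in WT libraries. Its 95% interval, 0.766 to 3.54-fold, leaves both directions possible at this depth.

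Among the receptors, Plxna1 rose 2.51-fold. Plexin A1 is known in dendritic cells as a receptor for Sema6d that works with the adaptor DAP12, and for its part in entry into lymphatic vessels. Plxna1 reached 31.1, 33.1 and 59.1 CPM in the IRF4-deficient replicates 1, 2 and 3, against 15.2, 18.7 and 14.9 CPM in WT libraries 1, 2 and 3. Every IRF4-deficient library lay above every WT library, and IRF4-deficient replicate 3 was far above the other two. Between the groups the log2 fold change was 1.33 (SE 0.23, edgeR adjusted p = 0.000434), and without IRF4-deficient replicate 3 it was 0.97 with an adjusted p of 0.000901. The library highest in Plxna1 was also the highest in red pulp macrophage markers (sum of 3294 CPM). IRF4-deficient replicates 1 and 2, with similar Plxna1, had marker sums of 1783 and 2508 CPM, and a link between these levels was not tested. With an index of the 12 red pulp markers as a covariate, the log2 fold change of Plxna1 was 0.42 (SE 0.33, edgeR adjusted p = 0.583). That index did not overlap between the genotypes (-0.02 to 1.42 in IRF4-deficient, -1.14 to -0.55 in WT), so the level of these markers and genotype cannot be told apart in it. Plxna1 (ENSMUSG00000030084.11) lies on chromosome 6 at 89316314 to 89362620 on the minus strand. Its exons overlap those of the antisense gene Gm26811, and the strand setting of the counting is not given. Exons of other genes in the set overlap as well. These are Plxnc1 (with Gm48718, same strand), Sema4a (with Mir7011, same strand) and Sema4c (with D430040D24Rik, opposite strand).

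Plxnb2, a receptor for Sema4c and Sema4d, rose in every IRF4-deficient library. It had 288, 288 and 308 CPM in IRF4-deficient libraries (replicates 1, 2 and 3), against 176, 189 and 195 CPM in WT libraries 1, 2 and 3. The replicates within each genotype were close together and the groups were well apart. This gave a log2 fold change of 0.66 (SE 0.09, edgeR adjusted p = 1.37e-05), with a 95% interval of 1.39 to 1.79-fold. It was called in all 15 alternative fits, and with the red pulp index as covariate its log2 fold change was 0.61 (adjusted p = 0.0292). Plxnb2 (ENSMUSG00000036606.17) lies on chromosome 15 at 89155549 to 89180788 on the minus strand.

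Plxnc1, the receptor of Sema7a, was the most abundant gene of the set. It had 1919, 1766 and 1843 CPM in IRF4-deficient libraries (replicates 1, 2 and 3), against 1460.3, 1685 and 1704 CPM in WT libraries 1, 2 and 3. The IRF4-deficient libraries all lay above the WT libraries, though the nearest pair were close. The log2 fold change was 0.19 (SE 0.08), and Plxnc1 was not called (edgeR adjusted p = 0.092), with a 95% interval of 1.02 to 1.27-fold. No alternative fit called it. Plxnd1, a receptor for Sema3e and also for Sema4a, had 209, 163 and 222 CPM in IRF4-deficient libraries, against 172, 159 and 173 CPM in WT libraries. IRF4-deficient replicate 2 fell among the WT values. Plxnd1 had a log2 fold change of 0.24 (SE 0.11, edgeR adjusted p = 0.14). Without that replicate the value was 0.36 with an adjusted p of 0.02. Leaving out any other library gave no call (edgeR adjusted p up to 0.39).

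**Figure D1:**
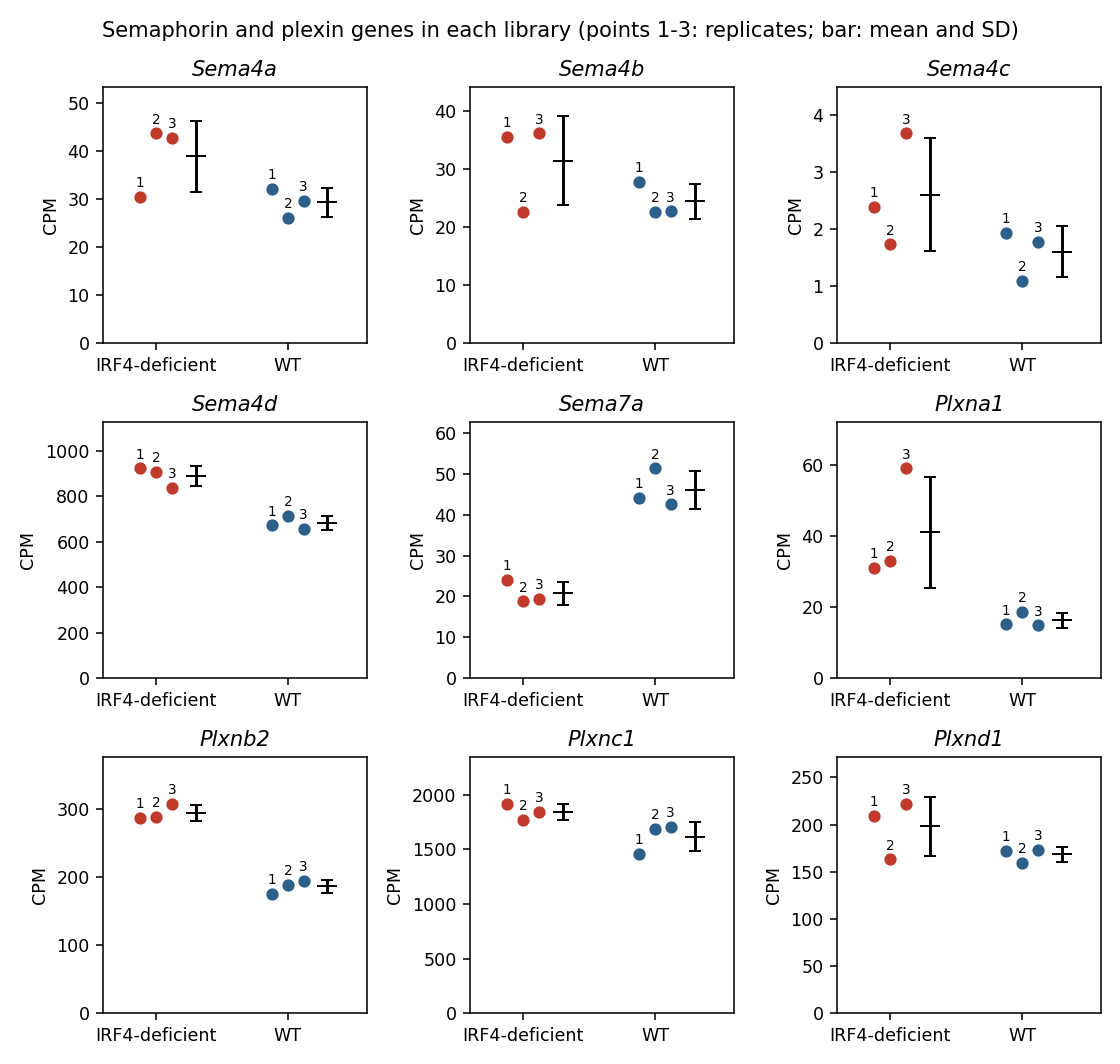
Level of each gene in CPM (vertical axes from 0) in the 3 IRF4-deficient libraries (red) and the 3 WT libraries (blue), numbered by replicate, with the mean and SD beside them. The groups do not overlap for Sema4d, Sema7a, Plxna1, Plxnb2 and Plxnc1, and Sema7a is the gene with lower IRF4-deficient values.

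The 3 libraries of each group did not overlap for 5 of the 9 genes, and the same held for 35.6% of all tested genes. Sema4d, Sema7a, Plxna1 and Plxnb2 kept their calls when any 1 of the 6 libraries was left out. Without IRF4-deficient replicate 3 the log2 fold changes were 0.42 for Sema4d, -1.10 for Sema7a and 0.63 for Plxnb2. Sema4d and Sema7a were not called with the red pulp index as covariate (log2 fold changes of 0.46, SE 0.15, and -0.93, SE 0.30, edgeR adjusted p of 0.0789 and 0.0761).

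**Figure D2:**
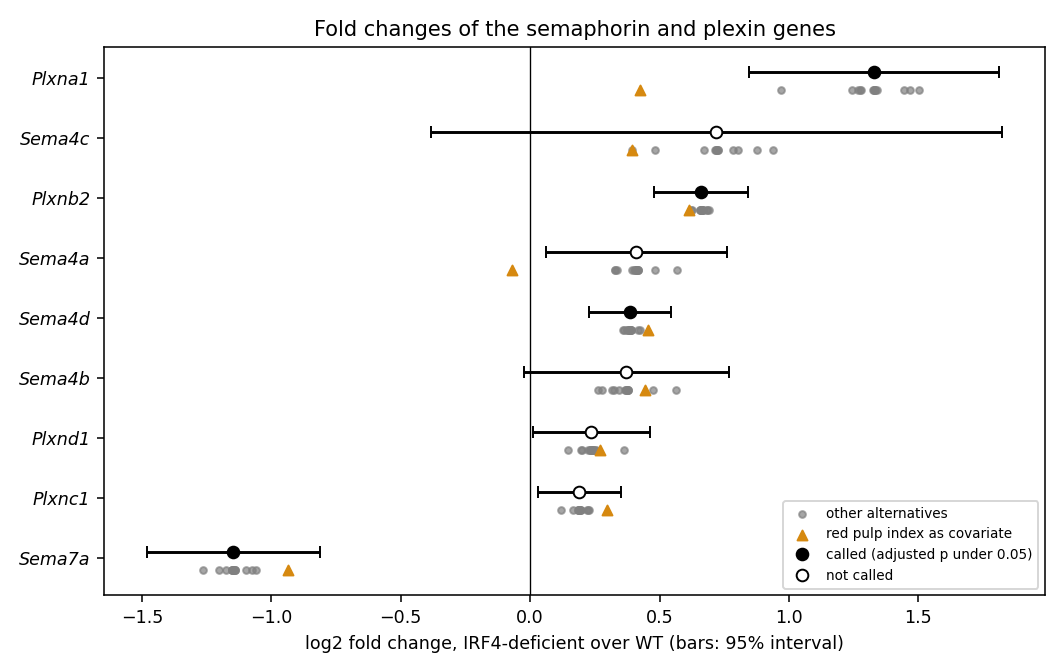
Log2 fold change (IRF4-deficient over WT) of each gene with its 95% interval, filled where called, and the values under the alternative fits below each (grey, with the red pulp covariate as orange triangles). With that covariate Plxna1 has 0.42 in place of 1.33 and Sema4a -0.07 in place of 0.41, while Plxnb2 has 0.61 in place of 0.66.

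Levels of different genes were compared per length, as CPM per kilobase of annotated exon sequence (FPKM). Plxnc1 stood at 221 ± 9.13 FPKM in IRF4-deficient and 194 ± 16.3 FPKM in WT libraries, and its mean over the 6 libraries was at or above that of 99.3% of 10759 tested genes with an annotated length. Sema4d came next, with 116 ± 5.82 FPKM in IRF4-deficient and 88.7 ± 3.89 FPKM in WT libraries, at 97.8% on the same ranking. Plxnb2 followed at 38.2 ± 1.51 FPKM in IRF4-deficient and 24.2 ± 1.24 FPKM in WT libraries. Plxnd1 stood at 27.1 ± 4.26 FPKM in IRF4-deficient and 23.1 ± 1.05 FPKM in WT libraries. Thus Plxnb2 lay above Plxnd1 in IRF4-deficient libraries with no overlap, and in WT libraries these receptors overlapped.

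The order of the less abundant genes also differed. Sema7a stood at 6.28 ± 0.870 FPKM in IRF4-deficient libraries and overlapped there with Sema4a (7.21 ± 1.37 FPKM) and Sema4b (5.56 ± 1.35 FPKM). In WT libraries it stood at 13.9 ± 1.42 FPKM, above Sema4a (5.43 ± 0.561 FPKM) and Sema4b (4.32 ± 0.526 FPKM) with no overlap. Plxna1 stood at 4.54 ± 1.73 FPKM in IRF4-deficient libraries, where it overlapped with Sema4b, and at 1.80 ± 0.235 FPKM in WT, where it did not. Sema4c was lowest in both, at 0.566 ± 0.215 FPKM in IRF4-deficient and 0.349 ± 0.0977 FPKM in WT libraries.

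**Figure D3:**
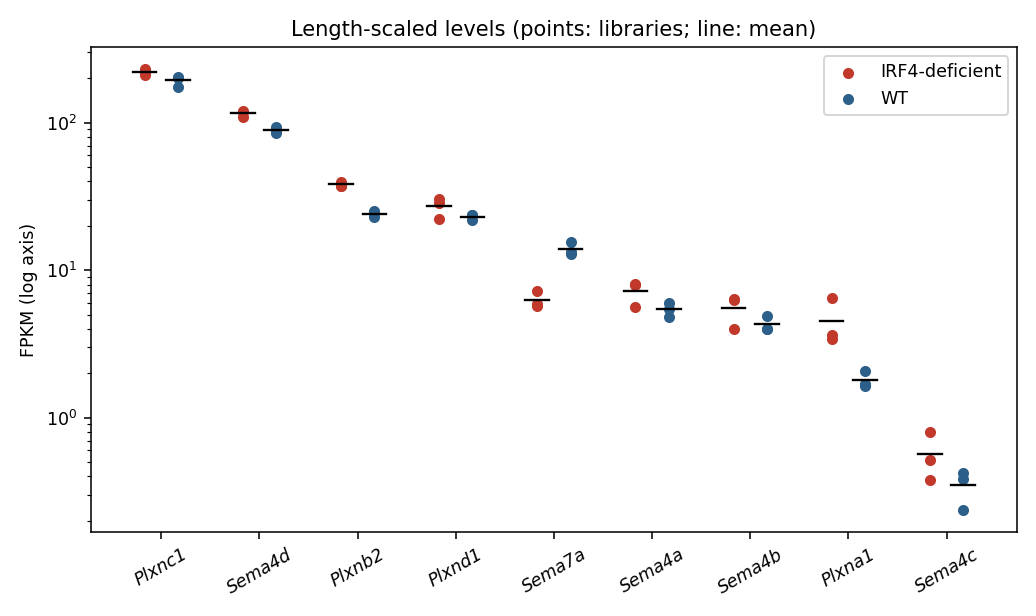
Length-scaled level (FPKM, log axis) of each gene in IRF4-deficient (red, left) and WT (blue, right) libraries, with the mean as a line, ordered by the WT mean. The genes span 0.349 to 194 FPKM in WT means, and Sema7a falls among Sema4a and Sema4b in the IRF4-deficient libraries.

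As a share of all 15 semaphorins with counts, Sema4d made up 77.9 ± 2.74% of semaphorin FPKM in IRF4-deficient and 71.2 ± 0.747% in WT libraries. Sema7a made up 4.22 ± 0.547% in IRF4-deficient and 11.2 ± 0.556% in WT libraries. In no library of either group did the shares of these genes cross between genotypes. The family total was 149 ± 2.28 FPKM in IRF4-deficient and 125 ± 6.40 FPKM in WT libraries. Among the 8 plexins with counts, Plxnc1 made up 75.8 ± 1.57% in IRF4-deficient and 79.6 ± 1.09% in WT libraries, and Plxnb2 13.1 ± 0.594% in IRF4-deficient and 9.95 ± 0.237% in WT libraries. The plexin total was 291 ± 13.3 FPKM in IRF4-deficient and 243 ± 17.4 FPKM in WT libraries. These shares and totals restate the levels above and were not tested.

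**Figure D4:**
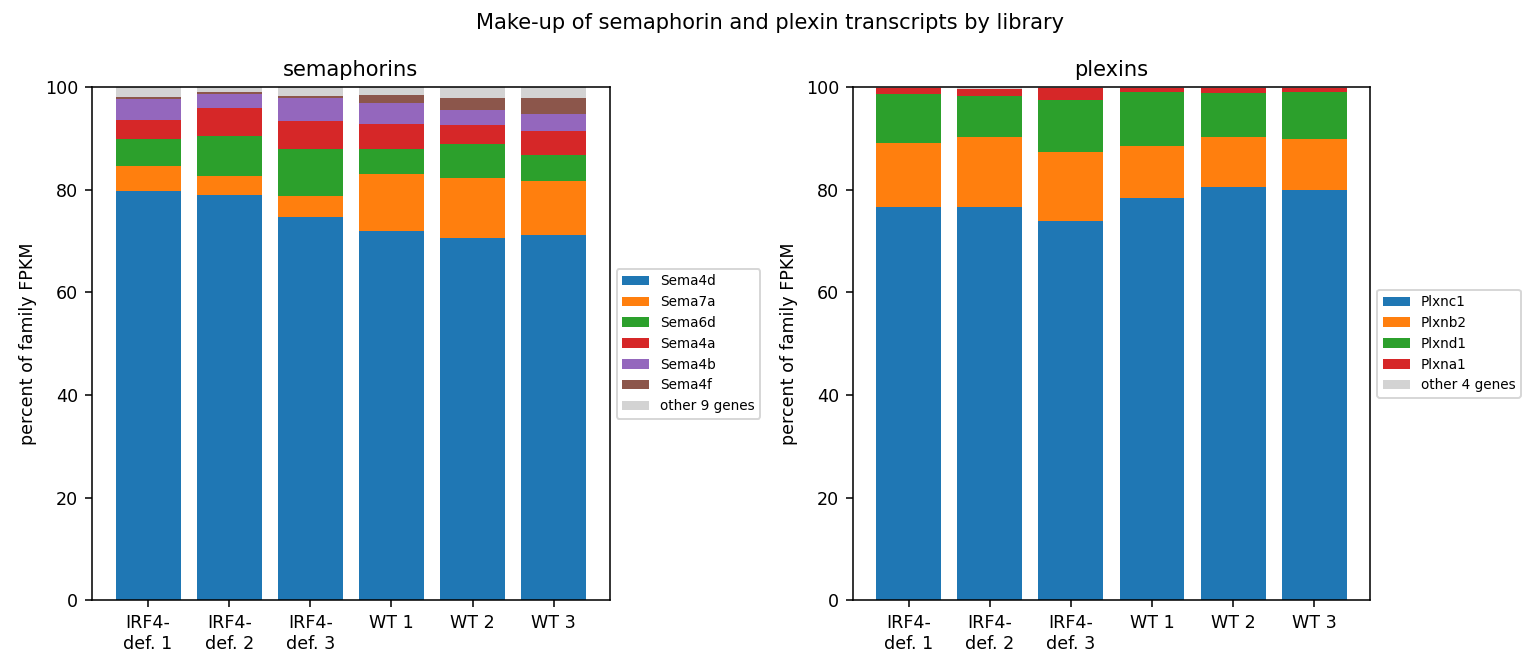
Percent of semaphorin FPKM (left) and plexin FPKM (right) held by each gene in each library, IRF4-deficient left of WT. Sema4d and Plxnc1 hold the largest share of their families in every library, and Sema7a holds 4.22% on average in IRF4-deficient and 11.2% in WT libraries.

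The other genes of the pathway came from a list of 89 genes in 6 roles, of which 64 were tested. Of these 10 were called higher and 5 lower (15.6% and 7.81%, against 9.87% and 10.5% of all tested genes), with a median log2 fold change of 0.0024 against 0.0025. Among 5 other semaphorins tested, Sema4f fell to 3.20 ± 0.474 CPM in IRF4-deficient libraries, against 15.7 ± 4.45 CPM in WT libraries, a log2 fold change of -2.30 (SE 0.30, edgeR adjusted p = 1.38e-05). By library it had 2.67, 3.58 and 3.34 CPM in IRF4-deficient cells (replicates 1, 2 and 3), against 10.8, 16.6 and 19.5 CPM in WT, so the groups were far apart. Sema6d, the ligand of plexin A1, was the only other semaphorin above 50 CPM. It had 81.2, 122 and 143 CPM in IRF4-deficient libraries, against 62.2, 91.5 and 63.9 CPM in WT libraries, which overlapped. With a log2 fold change of 0.66 (SE 0.22, edgeR adjusted p = 0.0645) Sema6d was not called, but it was called by DESeq2 (adjusted p = 0.00305), by limma-voom (0.0316), by edgeR with no robust shrinkage (0.015) and without IRF4-deficient replicate 1 (adjusted p = 0.000551) or WT replicate 2 (0.00851). With the red pulp covariate its log2 fold change was -0.28 (adjusted p = 0.615). The 1 other plexin tested was not called.

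Of 11 other receptors and coreceptors tested 3 were called, all of them higher (27.3%, against 9.87% of all tested genes). L1cam, an adhesion molecule that serves as a coreceptor for secreted semaphorins in neurons, rose 5.76-fold to 400.0 ± 47.8 CPM in IRF4-deficient libraries, against 69.5 ± 6.24 CPM in WT (edgeR adjusted p = 5.04e-12). Nrp2, a neuropilin that binds secreted semaphorins together with plexins, had 20.9, 23.9 and 18.6 CPM in IRF4-deficient libraries, against 10.1, 10.8 and 14.5 CPM in WT libraries, with no overlap (log2 fold change 0.84, SE 0.21, edgeR adjusted p = 0.00768). Met, a receptor kinase that associates with B-type plexins, rose 2.92-fold to 11.2 ± 1.75 CPM in IRF4-deficient libraries, against 3.84 ± 0.711 CPM in WT. Itgb1, the integrin chain of the Sema7a receptor, averaged 389.8 ± 37.8 CPM in IRF4-deficient libraries, against 331 ± 4.23 CPM in WT. It did not pass (edgeR adjusted p = 0.0626), except without IRF4-deficient replicate 3 (adjusted p = 0.0283). Tyrobp, which encodes DAP12, averaged 588 ± 24.5 CPM in IRF4-deficient libraries, against 515 ± 57.3 CPM in WT, and was not called. Neither was the Sema4d receptor gene Cd72 (named after its values were seen), with 45.3 ± 4.47 CPM in IRF4-deficient libraries, against 54.7 ± 6.66 CPM in WT.

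Below the receptors, 20 GTPase and regulator genes were tested, with 1 called higher and 1 lower. That is 5% each way, against 9.87% and 10.5% of all tested genes. Rap2a, a small GTPase of the Rap family, rose 2.06-fold to 131 ± 4.38 CPM in IRF4-deficient libraries, against 63.4 ± 6.34 CPM in WT. Rnd3 fell to 338 ± 5.51 CPM in IRF4-deficient libraries, against 440.4 ± 26.5 CPM in WT (log2 fold change -0.38, SE 0.08). Rhoa, Rac1, Rac2, Cdc42, Rap1a and Rap1b, all above 50 CPM, were not called.

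Of 23 kinase and cytoskeletal genes 5 were called higher and 3 lower (21.7% and 13%, against 9.87% and 10.5% of all tested genes). Fyn, a Src family kinase that acts below A-type plexins, rose 1.78-fold to 122 ± 7.21 CPM in IRF4-deficient libraries, against 68.3 ± 2.09 CPM in WT. Mical1, an actin-oxidising enzyme that binds plexins, rose 1.44-fold, and Ptk2, which encodes focal adhesion kinase, 1.39-fold. Mical2, a relative of Mical1, fell to 21.0 ± 2.62 CPM in IRF4-deficient libraries, against 34.0 ± 2.63 CPM in WT. Pak1, a kinase activated by Rac, fell to 261 ± 15.8 CPM in IRF4-deficient libraries, against 339 ± 11.8 CPM in WT. The remaining 3 calls were each lost in several of the fits that left out 1 library. Dpysl2, which encodes the semaphorin effector CRMP2, rose (edgeR adjusted p = 0.0331), but the adjusted p was 0.214 when IRF4-deficient replicate 2 was left out, 0.0779 to 0.0929 when any WT library was, and 0.0575 by limma-voom. Gsk3b, a kinase below A-type plexins, rose (edgeR adjusted p = 0.0298), but the adjusted p was 0.0653 and 0.0794 when IRF4-deficient replicates 2 and 3 were left out in turn, and 0.145 and 0.0722 for WT replicates 2 and 3. Micall1 (chosen after its values were seen) fell (edgeR adjusted p = 0.0188), but the adjusted p was 0.0636 when IRF4-deficient replicate 3 was left out, and 0.0699 and 0.0528 for WT replicates 1 and 3.

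Of 4 proteases known to release membrane semaphorins 1 was called higher (25%, against 9.87% of all tested genes). Mmp14, a membrane metalloprotease that cleaves Sema4d, rose 2.43-fold to 11.8 ± 1.88 CPM in IRF4-deficient libraries, against 4.78 ± 0.845 CPM in WT. Adam17 averaged 216 ± 18.6 CPM in IRF4-deficient libraries, against 223 ± 14.2 CPM in WT, and was not called. Nor was Adam10, with 98.9 ± 4.05 CPM in IRF4-deficient libraries, against 103 ± 4.99 CPM in WT. With the red pulp index as covariate, 3 list genes were called higher (L1cam, Rap2a and Fyn) and 1 lower (Sema4f). The other 11 list genes called without it did not pass, with the same sign and wider errors. Among these, Nrp2 (log2 fold change 1.11, SE 0.41), Mical2 (-1.06, SE 0.32), Rnd3 (-0.48, SE 0.16) and Dpysl2 (0.40, SE 0.25) had values at least as large as without the covariate. Values were smaller for Met (1.42), Mmp14 (0.84), Ptk2 (0.34), Mical1 (0.33), Gsk3b (0.12), Pak1 (-0.23) and Micall1 (-0.42).

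**Figure D5:**
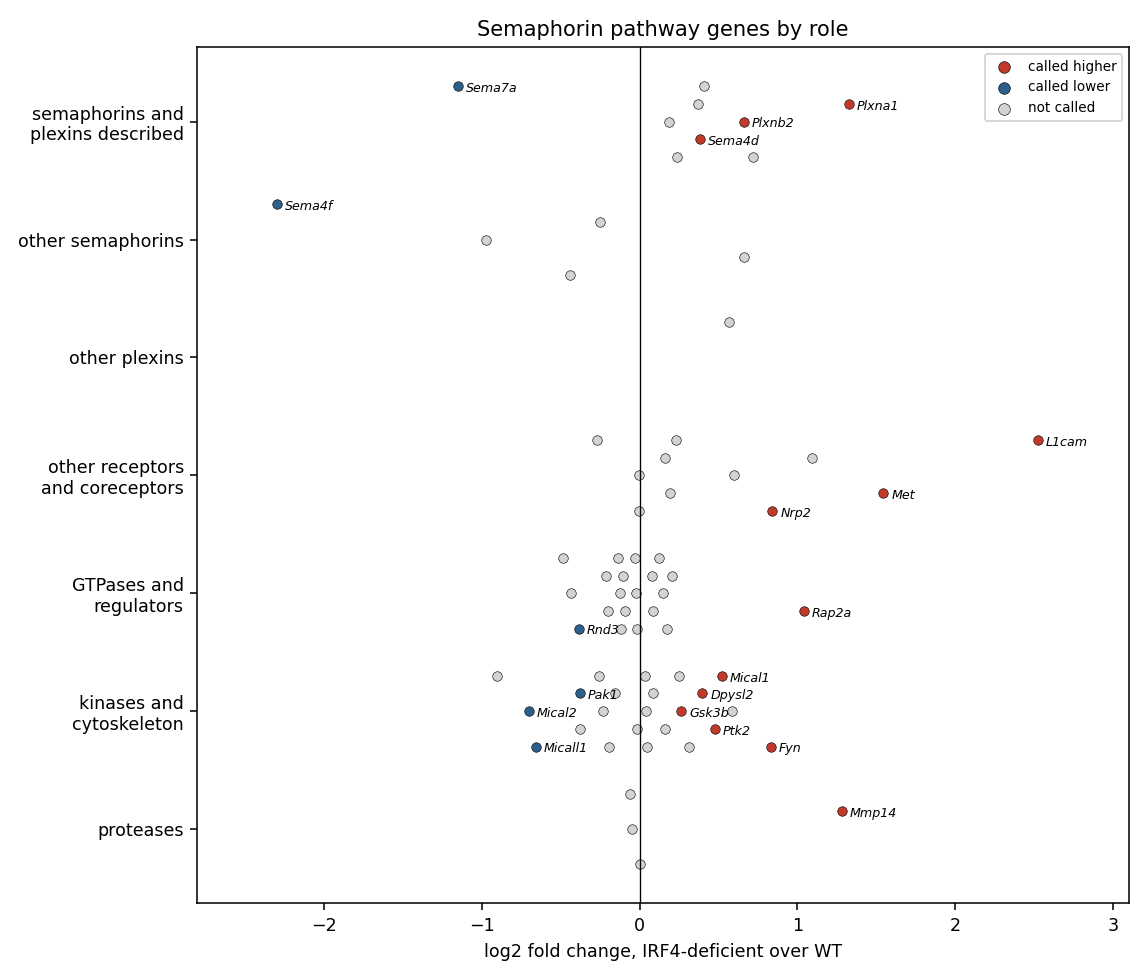
Log2 fold change (IRF4-deficient over WT) of the 9 genes and of the 64 tested list genes by role, red where called higher, blue where called lower and grey where not called. L1cam lies farthest to the right at 2.52 and Sema4f farthest to the left at -2.30.

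The genes whose log2 CPM over the 6 libraries ran closest to Plxna1, among 9917 genes compared, were Slc41a3, Tlr13 and Sh3bp2 (Pearson r of 0.9965, 0.9942 and 0.9938). Closest to Sema7a were Znrf2, Bbs9 and Kat2b (0.9993, 0.9971 and 0.9965). With 3 libraries in each of 2 genotypes such values are set mostly by the genotype difference and serve as a description.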

How the data were processed

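Splenic cDC2 RNA was measured by RNA-seq in 3 IRF4-deficient and 3 WT samples. The authors deposited raw counts by gene symbol in a single table. STAR, HTSeq, DESeq2 and the build mm10 are named, without versions, in the submitters' processing notes. Neither the annotation nor the strand setting of the counting is stated. Columns were tied to samples by number (IRF4-deficient) or by source name (WT), and 0 columns were left unused.

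Counts were filtered with filterByExpr, scaled by TMM and tested with edgeR 4.0.16 (glmQLFit with robust shrinkage, glmQLFTest, two-sided, R 4.3.3). The SE is derived from the F statistic. FPKM divides TMM-scaled CPM by the merged exon length of GENCODE M21 (GRCm38), which can exceed the length of the transcripts used and so understate a level. Chi-square per degree of freedom between replicates was 7.66 to 15.9, beyond the noise of counting 1 library again. Same-numbered replicates of the genotypes did not deviate together (r of -0.0106 to 0.0512 over genes).

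The genes and lists were chosen with earlier results of these data known. All 9 genes are named. A called list gene could be named if among the 5 smallest p of its role, and any list gene if its mean was at least 50 CPM. Micall1 and Cd72 fall outside that rule. Alternatives were DESeq2 1.42.0, limma-voom (limma 3.58.1), other scaling factors, other filters, no robust shrinkage, a replicate block, a red pulp macrophage index as covariate, and leaving out each library. The fits were also run on simulated counts. These had the same relative spread for every gene, unlike the libraries here, so that run does not bear on the calls reported. List genes without a row were not analysed here.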

Additional observations from a re-analysis of the deposited data

How the results depend on the processing

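The red pulp macrophage index as covariate was the alternative that moved most results. With it 349 genes were called higher and 398 lower over the whole table, in place of 1178 and 1251. Among the 9 genes 1 was called higher (Plxnb2) and 0 lower, and among the list genes 3 higher and 1 lower. The log2 fold changes (IRF4-deficient over WT) of Plxna1, Sema4d and Sema7a were then 0.42, 0.46 and -0.93 and no longer passed (edgeR adjusted p of 0.583, 0.0789 and 0.0761), and that of Sema4a was -0.07 (-0.0696, adjusted p = 0.949). The index did not overlap between the genotypes, so the effects of index and genotype cannot be told apart. Leaving out 1 library gave 3 to 5 of the 9 genes called higher and 1 lower. Over all 12082 to 12231 genes tested in these fits, 868 to 1157 were called higher and 911 to 1274 lower. The log2 fold change lay between 0.33 and 0.57 for Sema4a, 0.26 and 0.56 for Sema4b and 0.14 and 0.36 for Plxnd1 in these fits, with a call without IRF4-deficient replicate 1 for Sema4a and without IRF4-deficient replicate 2 for Sema4b and Plxnd1. The replicate block rests on numbers that did not pair the libraries (r of -0.0106 to 0.0512), and the WT numbers differ between the table and the sample titles. With it 1090 genes were called higher and 1177 lower, and the calls of the 9 genes were the same (log2 fold change of Sema7a -1.15), while Sema6d was called (adjusted p = 0.0069) and Gsk3b was not (adjusted p = 0.0556). Under DESeq2, limma-voom, other scaling, other filters and no robust shrinkage the 4 calls among the 9 genes held and no other gene of the 9 was called. Sema4c gave no value under the filter of 5 CPM in 3 libraries, and its depth limits what can be said of it.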
